A study of Mus musculus with 24 samples.

Results

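The effect of dietary curcumin on the colon without colitis was read from 12 of the 24 arrays of the study. They are the 6 arrays of mice that ate a diet with 2% curcumin and received a control enema, set against the 6 arrays of mice on the standard diet with the same enema. They were chosen by their diet and enema labels. Each diet has 3 numbered samples, and each sample was put on 1 Affymetrix MOE430A and 1 MOE430B array, which carry different probe sets. All mice were BALB/c, an inbred laboratory strain, and 6 to 8 weeks old. The diets began 2 days before the enema, which was given on day 0, and the whole colon was taken on day 7. The other 12 arrays come from mice on the same diets with an enema of TNBS (trinitrobenzene sulfonic acid), a hapten used to bring on colitis. Per the labels, each group's RNA is a pool of 3 mice, and whether the 3 samples on a diet are separate pools is not stated. Unless stated otherwise, the p-values and standard errors below rest on the spread between samples of the same diet and enema. It is pooled over all 12 arrays of an array type, with the TNBS arrays included, and is not that of the compared samples alone. Since separate pools are not stated, this spread may be technical. The protocol also mentions wild-type littermates, but no label names a mutation.

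Curcumin is the yellow polyphenol of turmeric and a reactive compound that the gut epithelium meets at high concentration after a meal. The epithelium of the colon is a secretory tissue: goblet cells make mucins and other heavily folded proteins in the endoplasmic reticulum (ER). When unfolded proteins build up in the ER, the sensors Ern1, Eif2ak3 and Atf6 start the unfolded protein response, which raises ER chaperones, folding enzymes and degradation factors through Xbp1 and Atf6, and stress factors such as Ddit3 through Atf4. Electrophiles such as curcumin are also known to release the transcription factor Nrf2 from Keap1, and Nrf2 turns on genes of glutathione synthesis and detoxification.

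In the colons of the curcumin group, ER chaperone and stress genes stood higher than on the standard diet. Sterol synthesis genes and the Nrf2 target Akr1b8 also stood higher. The mucosal genes Itln1, Ang4 and Mptx1 stood lower. In limma, 1 probe set passed an adjusted p under 0.05, a Ttc3 probe set that was lower on curcumin. All differences below are log2 of the signal on the curcumin diet minus log2 of the signal on the standard diet, ± the standard error of the limma fit. A difference of 1 is a doubling. Signals are the deposited linear intensities, and a mean ± SD of signals is over 3 arrays per diet. "Unadjusted" marks a limma p that was not corrected for the number of probe sets, and a gene that is only past an unadjusted p under 0.05 is not called.

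On 430A, 0 of 22626 probe sets had an adjusted p under 0.05, and the smallest was 0.147. At an unadjusted p under 0.05 there were 322 higher (1.42%) and 318 lower (1.41%). On 430B, 1 of 22511 passed (0.00444%), and 409 were higher (1.82%) and 598 lower (2.66%) at an unadjusted p under 0.05. Standard errors of the log2 differences had a median of 0.295 on 430A and 0.396 on 430B, so the number of arrays limits the precision. Median signals of the 12 arrays ran from 232.6 to 308. The mean correlation of log2 signals between arrays of 1 diet was 0.924, against 0.93 between diets on 430A, and 0.908 against 0.907 on 430B. Markers of the colon were high on both diets: the chloride exchanger gene Slc26a3 averaged 6580.5 ± 721 on curcumin and 6074.2 ± 953 on the standard diet, and the mucin gene Muc2 averaged 81003 ± 9050 on curcumin and 80441.5 ± 13900 on the standard diet (SD, n = 3 each). As a check on the RNA, the signal of the Gapdh 3′ control probe set over that of the 5′ one was 0.7 to 0.935 on curcumin and 0.74 to 0.873 on the standard diet.

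Features other than diet parted the 430A arrays. The first principal component of all 12 arrays, with 32% of the variance, put curcumin samples 2 and 3 and standard sample 1 in array set 1, and curcumin sample 1 and standard samples 2 and 3 in array set 2. Pancreas transcripts also differed. The median signal of 19 pancreas acinar markers was 214.7, 156.6 and 4769.3 in the 3 curcumin samples, against 113.5, 11083.7 and 7963.7 in the 3 standard samples. Curcumin samples 1 and 2 and standard sample 1 were thus low in pancreas RNA, and curcumin sample 3 and standard samples 2 and 3 were high. Where a result is given within low or high samples, it rests on these 3 samples each.

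The ER stress list holds 30 genes, all measured. Before their values, their promoters are described. Some of these genes, such as the chaperone gene Hspa5, are textbook targets of 1 regulatory sequence, the ER stress element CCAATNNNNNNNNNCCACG. NF-Y and Atf6 or Xbp1 bind to it. RefSeq promoters of mouse build GRCm38.p6, 250 bases before to 50 after the start of a gene, were found for 27 of the 30 genes and were searched on both strands. Of the 27, 8 (29.6%) held the element: Calr, Canx, Creld2, Dnajc3, Hsp90b1, Hspa5, Pdia6 and Syvn1. Of all 27025 genes with a promoter, 37 (0.137%) did. The ER stress element II ATTGGNCCACG, in which the first part is reversed and stands 1 base from the last, was in 2 of the 27 (7.41%), Dnajb11 and Herpud1, against 12 of all genes (0.0444%). The 3 promoters below belong to genes that stood higher on curcumin in all 3 arrays. They are printed 5′ to 3′ on the strand of the gene, up to the base before the gene start, with the element in capitals. The Hspa5 promoter is chr2:34771840-34772089, plus strand, and its element ends 46 bases before the start. The Hsp90b1 promoter is chr10:86705445-86705694, minus strand, with 2 elements, 193 and 88 bases before the start, the nearer in reverse. The Creld2 promoter is chr15:88819396-88819645, plus strand, with its element in reverse, 107 bases before the start.
Hspa5: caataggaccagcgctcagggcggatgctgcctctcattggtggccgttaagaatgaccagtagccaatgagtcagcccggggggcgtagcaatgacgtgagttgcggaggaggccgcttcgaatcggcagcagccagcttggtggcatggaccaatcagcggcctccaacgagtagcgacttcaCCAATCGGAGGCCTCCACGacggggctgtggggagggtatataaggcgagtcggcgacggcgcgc
Hsp90b1: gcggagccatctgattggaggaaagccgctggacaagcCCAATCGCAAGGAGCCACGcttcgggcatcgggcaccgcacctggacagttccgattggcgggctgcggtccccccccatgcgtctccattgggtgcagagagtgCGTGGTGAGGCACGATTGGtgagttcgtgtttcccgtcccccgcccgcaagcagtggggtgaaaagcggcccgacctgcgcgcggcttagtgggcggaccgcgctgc
Creld2: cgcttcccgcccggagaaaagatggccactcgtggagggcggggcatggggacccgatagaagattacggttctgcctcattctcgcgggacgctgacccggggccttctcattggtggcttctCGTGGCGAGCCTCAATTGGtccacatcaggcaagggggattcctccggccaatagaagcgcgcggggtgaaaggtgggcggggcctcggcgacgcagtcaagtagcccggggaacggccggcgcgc
A match to these letters is a description of the sequence, and nothing was measured at these promoters here.

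The chaperones of the ER stood higher on curcumin. Hspa5 encodes BiP, the main Hsp70 chaperone of the ER and a gauge of the unfolded protein response. Its 430A probe set 1416064_a_at had signals of 7051, 9262.8 and 9412 in the curcumin arrays, against 5477.9, 4827.4 and 3963.4 in the standard arrays. The groups did not overlap, and the log2 difference was 0.85 ± 0.17 (1.8-fold, unadjusted p = 0.000267, adjusted p = 0.994 in limma). A second 430A probe set, 1427464_s_at, gave 3311.4, 4898.4 and 3443.5 on curcumin, against 1849.2, 1194.8 and 1584.2 on the standard diet. Its log2 difference of 1.33 ± 0.18 (2.52-fold) had the smallest adjusted p on 430A, 0.147. The 430B probe set, 1447824_x_at, did not show it: its means were 4553.5 ± 522 on curcumin and 4832.3 ± 311 on the standard diet (SD, n = 3 each), a difference of -0.09 ± 0.14. The probe sets of Hspa5 thus disagreed. Hsp90b1, the Hsp90 chaperone of the ER known as Grp94, had 3266.7, 3363.2 and 3583.2 on curcumin, against 2645.4, 1903.9 and 2069.7 on the standard diet. Every curcumin array lay above every standard array, with a difference of 0.64 ± 0.12 (unadjusted p = 0.000162), while its second probe set, 1415889_a_at, had 0.18 ± 0.17 and overlapping groups. Hyou1, which helps Hspa5 to exchange its nucleotide, had 1138.3, 936.8 and 1257 on curcumin, against 699.1, 754.9 and 730.8 on the standard diet, again without overlap (0.60 ± 0.13, 1.51-fold). Its dimmer probe sets were at 0.43 ± 0.20, without overlap, and at 0.23 ± 0.32, with overlap. The lectin chaperones of glycoproteins, Calr and Canx, varied by probe set. The brightest Calr probe set, 1433806_x_at, was at 0.17 ± 0.12. Its other probe sets were at 0.38 ± 0.13 (1417606_a_at, with overlap) and 0.43 ± 0.13 (1456170_x_at). All but 1417606_a_at had every curcumin array above every standard array. Canx was at 0.03 to 0.10 on 3 probe sets of 430A and at 0.29 ± 0.14 on 430B.

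**Figure D1:**
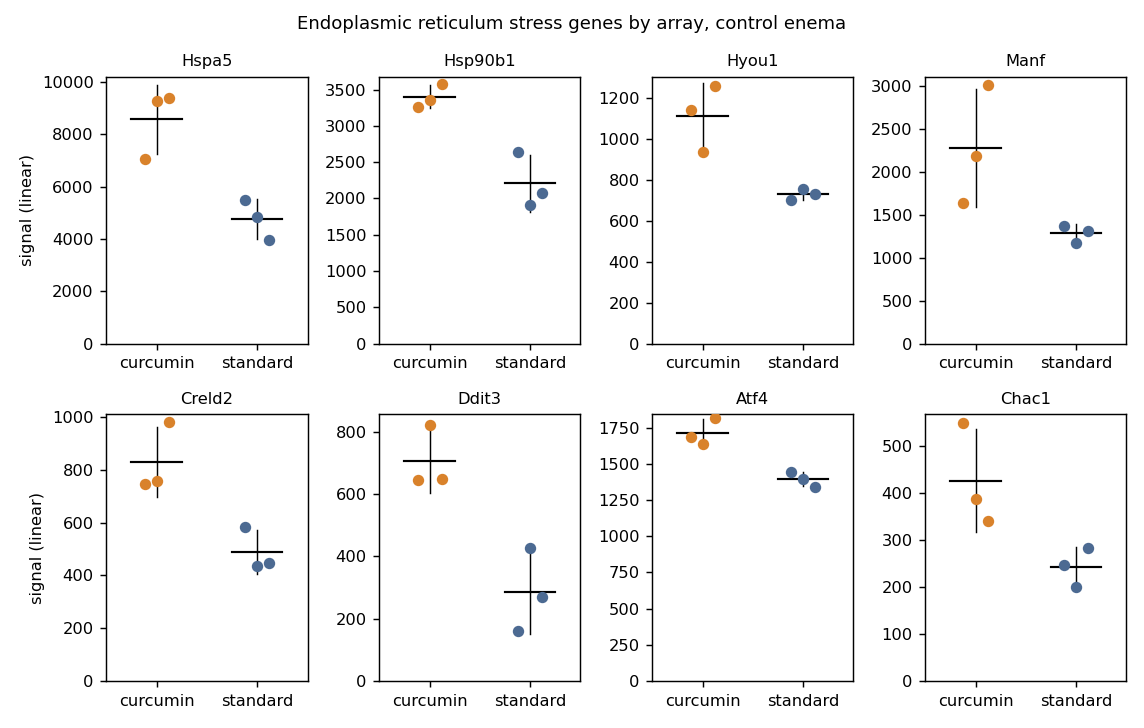
Signals (linear intensity, axes from 0) of 8 ER stress genes, each point 1 array, curcumin diet left and standard diet right, with the mean as a horizontal line and the SD as a vertical line (n = 3 each). In all 8 genes the 3 curcumin arrays lie above the 3 standard arrays, as for Hspa5, with 7051 to 9412 on curcumin and 3963.4 to 5477.9 on the standard diet. The 8 are among the 14 of 30 list genes without overlap, and 1 probe set per gene is shown. Probe sets with overlapping groups, not shown, are those of Hspa5 at -0.09, Hsp90b1 at 0.18, Hyou1 at 0.23, Ddit3 at -0.25 and Atf4 at 0.09 and -0.20.

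The partners and folding enzymes varied more. Dnajb11, a J-domain co-chaperone of Hspa5, had 864.1, 1484.8 and 1530.4 on curcumin, against 1029.8, 696.2 and 585.2 on the standard diet. Curcumin sample 1 lay below standard sample 1, so the groups overlapped in spite of a difference of 0.74 ± 0.25. Another J-domain partner, Dnajb9, was higher by only 0.27 ± 0.10 but without overlap, Sdf2l1 was at 0.47 ± 0.21, and Dnajc3 was at -0.12 ± 0.28 on its brightest probe set. The other 4 probe sets of Dnajc3 were at 0.08 to 0.57, and 1449372_at, at 0.57 ± 0.15, had 978.6, 769.8 and 924.5 on curcumin, against 532.4, 648.1 and 613.5 on the standard diet, without overlap. The 4 protein disulfide isomerases P4hb, Pdia3, Pdia4 and Pdia6, which form and rearrange disulfide bonds, had differences of 0.15 to 0.43, and in all 4 the groups of the brightest probe set overlapped.

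The secreted stress proteins Manf and Creld2 showed larger differences. Manf, a protein of the ER that is released on stress, had 1634.4, 2186.8 and 3007.4 on curcumin, against 1371.9, 1168.5 and 1304.9 on the standard diet (0.79 ± 0.18). Creld2, a secreted factor with disulfide isomerase activity, had 744.8, 757.9 and 980.8 on curcumin, against 585, 433.7 and 446.3 on the standard diet (0.76 ± 0.21). Neither gene's groups overlapped. For both, curcumin sample 3, which is high in pancreas transcripts, gave the highest signal. Of the factors that remove misfolded proteins, Syvn1 (0.29 ± 0.10) and Sel1l (0.22 ± 0.14), the ubiquitin ligase and its adaptor, were higher in every curcumin array. The other probe sets of Sel1l had overlapping groups, at 0.19 to 0.26 on 430A and 0.01 ± 0.15 on 430B. Herpud1 (0.37 ± 0.17) and Edem1 (0.19 ± 0.15, and -0.09 ± 0.15 on a second probe set) also had overlapping groups.

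The sensors Atf6 (0.25 ± 0.15), Eif2ak3 (0.06 ± 0.13) and Ern1 (-0.32 ± 0.37) had overlapping groups on 430A. Atf6 had another pair of probe sets on 430B. One, 1453288_at, had 342.8, 272.2 and 382.9 on curcumin, against 185, 180.4 and 213.7 on the standard diet, without overlap (0.77 ± 0.32). The other, 1456021_at, was at 0.07 ± 0.15 with overlap, so the Atf6 probe sets disagreed. Ddit3, the stress-induced transcription factor known as CHOP, had the largest difference of the list. Its 430A signals were 647.3, 822.9 and 647.9 on curcumin, against 159.4, 428.7 and 269.1 on the standard diet. The groups were far apart, with 706 ± 101 on curcumin and 285.7 ± 135 on the standard diet (SD, n = 3 each) and a difference of 1.41 ± 0.30 (2.66-fold, unadjusted p = 0.000541). A 430B probe set of Ddit3, 1443897_at, gave 305.9 ± 13 on curcumin and 367.8 ± 70.5 on the standard diet, a difference of -0.25 ± 0.57, so the probe sets of this gene disagreed too. Atf4, the factor upstream of Ddit3, had 1688.5, 1640.8 and 1819.1 on curcumin, against 1444.4, 1399.8 and 1344.6 on the standard diet (0.30 ± 0.11). Its dimmer probe sets were at 0.09 ± 0.25 and -0.20 ± 0.50, both with overlap. Of the targets of Atf4, Chac1, an enzyme that degrades glutathione, was higher in every curcumin array (0.80 ± 0.28), as was the pseudokinase gene Trib3 (0.59 ± 0.35), whose signals of 82.7 to 179.1 lay below the median of every array. Asns, asparagine synthetase, was at 0.28 ± 0.22, and Ppp1r15a, which ends the stress response by dephosphorylating eIF2 alpha, at -0.16 ± 0.22. Xbp1 itself was at 0.15 ± 0.15. The arrays do not separate its spliced and unspliced forms.

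Over the whole ER stress list, 27 of 30 genes had a higher mean on curcumin, against 48.4% of all 18193 genes measured. By roles, 5 of 5 chaperones, 3 of 4 J-domain and partner proteins, 4 of 4 isomerases, 2 of 2 secreted proteins, 4 of 4 degradation factors, 2 of 3 sensors, 4 of 4 transcription factors and 3 of 4 Atf4 targets were higher. Higher at an unadjusted p under 0.05 were 13 (of all genes, 1.82%), lower 0 (of all genes, 1.8%), and 0 passed the adjusted threshold. In 14 genes every curcumin array lay above every standard array (of all genes, 3.72%), and in 0 every one lay below (3.88%). The median difference was 0.29, against -0.01 over all genes. Counted over all 70 probe sets of these genes, 56 were higher (80.0%, against 46.7% of all probe sets with 1 gene symbol), and the median was 0.24. At an unadjusted p under 0.05, 21 of the 70 were higher and 0 lower. Of all 35041 probe sets with 1 gene symbol, 585 were higher and 674 lower at that threshold. The genes of the list share arrays and act together, so the counts are not independent observations.

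Pancreas transcripts differed between samples as described, and their part in these differences was not tested. Within the samples low in pancreas transcripts the median of the ER stress list was 0.21, within the samples high in them 0.47, and with their level as a term in the fit 0.29. Some members depended on this split: Pdia6 had -0.21 in the low samples and 1.07 in the high samples, and Xbp1 -0.21 and 0.54. Differences were also smaller in the low than in the high samples for Dnajb11 (0.14 and 1.26) and Manf (0.46 and 1.28). The same held for Creld2 (0.36 and 1.16) and Hsp90b1 (0.33 and 0.85). Hspa5 had 0.56 and 1.11, Hyou1 0.56 and 0.76 and Ddit3 2.19 and 0.93. When the array set was added to the fit the list's median was 0.30, and it was 0.24 and 0.31 within the 2 sets.

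**Figure D2:**
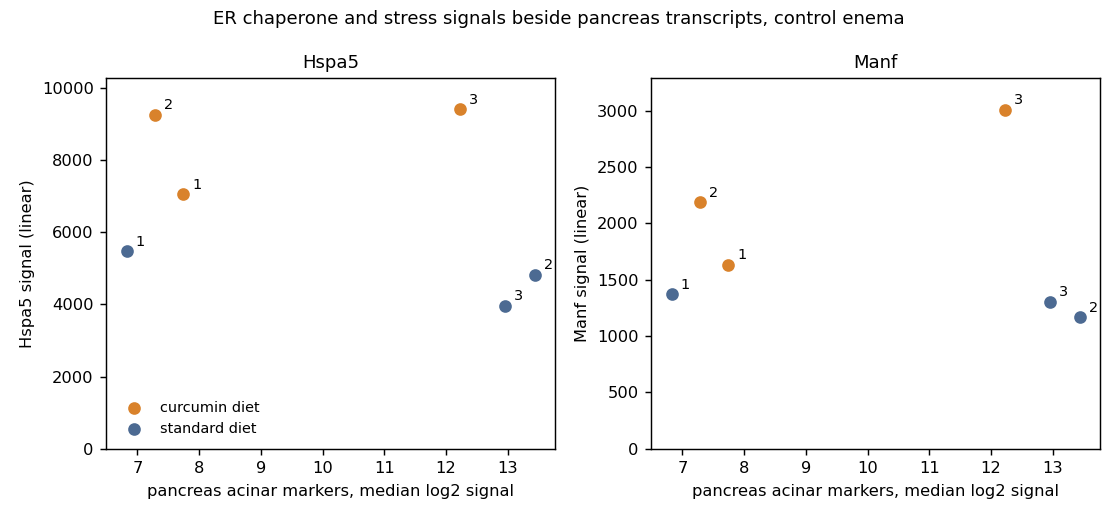
Signals of Hspa5 and Manf (linear intensity, vertical axes from 0) plotted against the median log2 signal of 19 pancreas acinar markers, each point 1 sample with its number, orange for the curcumin diet and blue for the standard diet. Hspa5 lies at 7051, 9262.8 and 9412 in the curcumin samples, above the standard samples at both the low and the high end of the pancreas axis.

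Genes with the ER stress element were then counted whether they were on the list or not. Of the 37 genes with the element, 20 were measured, 9 were higher and 11 lower, and their median was -0.03. The 12 measured ones outside the list had 2 higher and 10 lower and a median of -0.26. That median was -0.01 when the array set was added to the fit, and -0.21 and 0.06 within array sets 1 and 2. It was 0.19 in the samples low and -0.67 in the samples high in pancreas transcripts, and -0.35 with their level as a term. One of them, Ero1b, an ER oxidase that passes electrons on from disulfide isomerases, had 320.7, 243.6 and 242.5 on curcumin, against 368.8, 398.1 and 403.3 on the standard diet. It was lower in every curcumin array (-0.55 ± 0.21), while its other, dimmer probe sets were at 0.02 and 0.16.

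The cytosolic heat shock list, whose genes answer to unfolded proteins outside the ER, had 11 of 18 measured genes higher, 0 at an unadjusted p under 0.05 and a median of 0.05. Its median was -0.22 in the samples low in pancreas transcripts and 0.55 in the samples high in them. The Hsp90 co-chaperone gene Stip1 had a difference of 0.35 ± 0.17 and the Hsp40 gene Dnajb1 0.30 ± 0.17, both with overlap. Curcumin sample 3 was the highest array for the inducible Hspa1a, with 239.6, 286.4 and 832 on curcumin, against 377, 211 and 267.7 on the standard diet (0.47 ± 0.39).

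**Figure D3:**
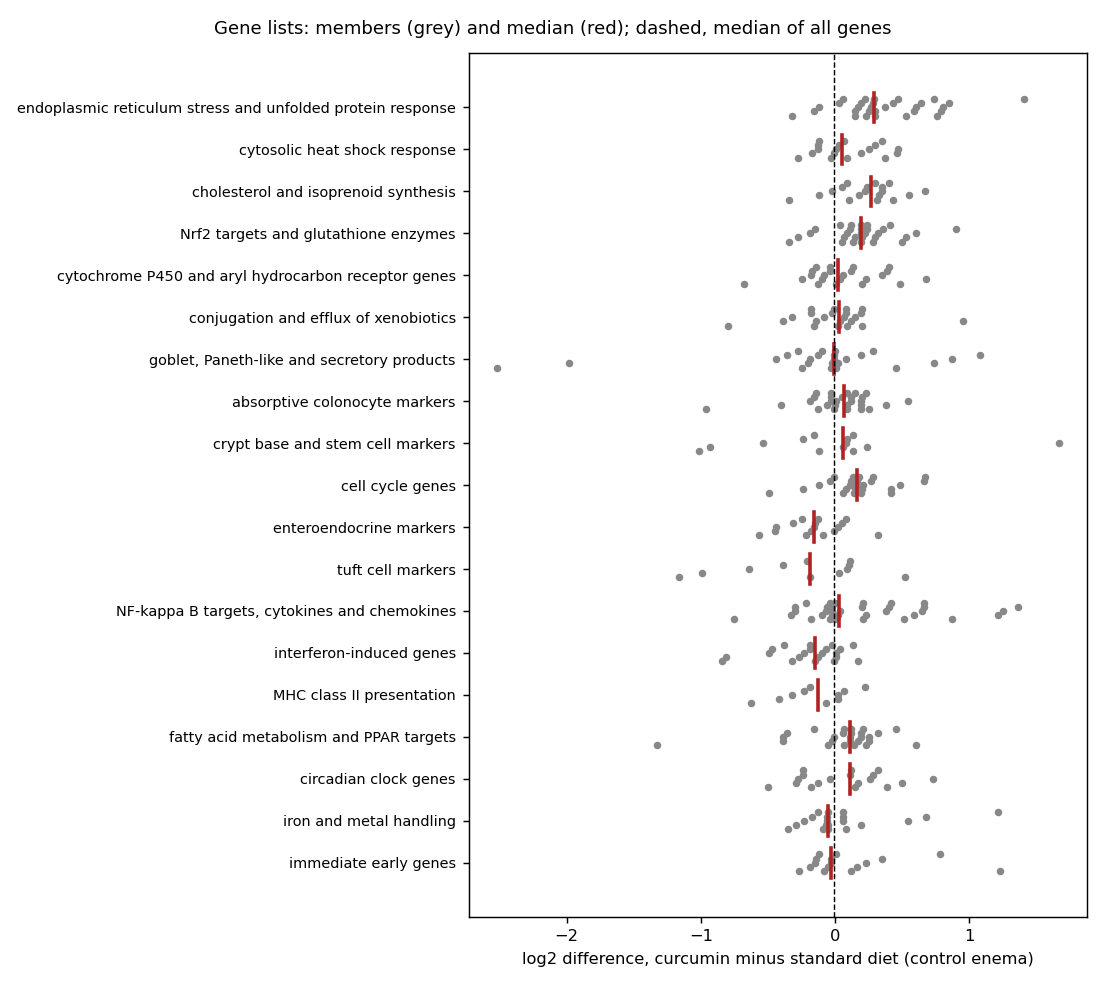
Log2 differences (curcumin minus standard diet, control enema) of the measured members of 19 gene lists, 1 grey point per gene, with the list's median in red and the median of all genes as a dashed line. The ER stress list (median 0.29), the cholesterol synthesis list (0.27) and the Nrf2 list (0.19) lie furthest to the right of the lists plotted. The tuft cell (-0.19), enteroendocrine (-0.16), interferon (-0.15) and MHC class II (-0.13) lists lie furthest to the left.

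With TNBS enema, on other arrays, the same list did not stand higher on curcumin: 9 of 30 genes had a higher mean (of all genes, 51.2%), and the median was -0.09. Hspa5 still had a difference of 0.38 there and Ddit3 0.51, while Hyou1 was at -0.31, Manf at -0.40 and Creld2 at -0.34. On 430A, 0 probe sets had an adjusted p under 0.05 for the difference between the diet effects with each enema (limma interaction term), and 1842 had an unadjusted p under 0.05. On 430B, 4 (0.0178%) had an adjusted p under 0.05. Of the 322 probe sets on 430A that were higher at an unadjusted p under 0.05 without colitis, 31.1% were also higher under TNBS, against 50.5% of all probe sets. Of the 318 lower ones, 27.7% were also lower, against 49.5%. On 430B the shares lay nearer to those of all probe sets: 49.9% of the higher ones (of all, 59.0%) and 34.1% of the lower ones (of all, 41.0%). Without the 2 arrays of curcumin-diet mice with TNBS that stood apart on 430B they were 45.7% (of all, 55.5%) and 40.6% (of all, 44.5%). The array set is unequal between the diets, and in the opposite way with each enema. When the array set was added to the fit of 430A the shares were 27% (of all, 44.2%) and 30.3% (of all, 55.8%), and that term enters the diet differences of both enemas with opposite sign. The part of the array set in these shares was not tested further.

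**Figure D4:**
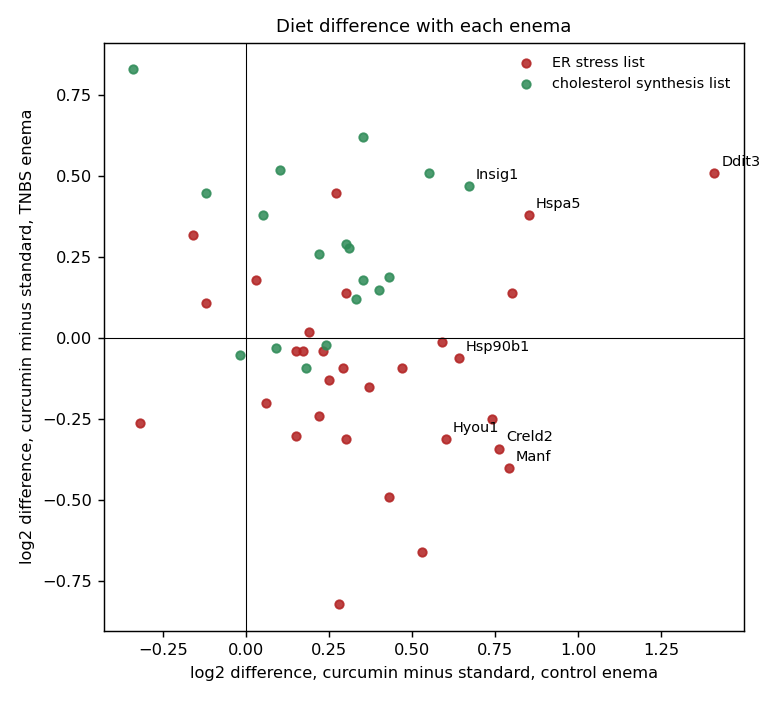
Log2 difference between the diets (curcumin minus standard) with TNBS enema on the vertical axis against that with control enema on the horizontal axis, 1 point per gene, red for the ER stress list and green for the cholesterol synthesis list. The ER stress genes lie to the right, 27 of 30 above 0 with control enema, but 9 of 30 above 0 with TNBS, whereas 14 of 18 cholesterol synthesis genes are above 0 with TNBS.

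The genes of cholesterol and isoprenoid synthesis, which are switched on together by the factor Srebf2 when sterols are scarce in the ER membrane, also stood higher. Of 23 genes, 18 were measured. Of these, 15 were higher (of all genes, 48.4%). At an unadjusted p under 0.05, 6 were higher (of all genes, 1.82%), and 9 were higher in every curcumin array (of all genes, 3.72%). The median was 0.27, and 0 passed the adjusted threshold. Insig1, an ER protein that holds back sterol synthesis and is itself a sterol-regulated target, had 2520.3, 3875.5 and 2726.3 on curcumin, against 1676.5, 1950.8 and 2012.4 on the standard diet. The arrays did not overlap, and the difference was 0.67 ± 0.19 (unadjusted p = 0.00399). Hmgcs1, the synthase that supplies HMG-CoA, had 4063.8, 5287.2 and 3807.9 on curcumin, against 3613.6, 3034 and 2375 on the standard diet (0.55 ± 0.23). Its probe set 1433446_at was at 0.39 ± 0.17, also without overlap. The other Hmgcs1 probe sets had overlapping groups, at 0.11 and 0.22 on 430A and at 0.68 on 430B, the last on signals of 84.9 to 302. Smaller differences without overlap were found for the later enzymes Cyp51 (0.43 ± 0.16), Nsdhl (0.33 ± 0.11), Fdft1 (0.30 ± 0.12) and the sterol carrier Stard4 (0.31 ± 0.12). Other probe sets overlapped for Cyp51 (0.15), Fdft1 (1.21) and Stard4 (0.10 on 430A and 0.14 on 430B). Further ones did not overlap, for Cyp51 (1.94, on signals of 9.1 to 105.6) and Fdft1 (0.49 and 0.70). Sqle, squalene epoxidase, had 1738.4 in standard sample 1, above all curcumin arrays, and its difference was 0.35 ± 0.24. Srebf2 itself was at -0.02 ± 0.21. Over all 42 probe sets of the list, 34 were higher (81.0%, against 46.7% of all probe sets with 1 gene symbol), with a median of 0.22. Within the low and high pancreas samples the list's median was 0.36 and 0.15. Under TNBS it was 0.27 with 14 of 18 genes higher (of all genes, 51.2%), with Insig1 at 0.47 and Hmgcs1 at 0.51.

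Of 33 Nrf2 targets and glutathione enzymes, 29 were measured and 25 of these were higher (of all genes, 48.4%), with a median of 0.19. However, 2 were higher at an unadjusted p under 0.05 (of all genes, 1.82%), 2 in every curcumin array (of all genes, 3.72%), and 0 passed the adjusted threshold. Akr1b8, an aldo-keto reductase that detoxifies aldehydes, had 2456, 2899.5 and 2662.4 on curcumin, against 1638.7, 1539.2 and 1156.5 on the standard diet. It was higher in every curcumin array by 0.90 ± 0.15 (1.87-fold, unadjusted p = 5.11e-05, adjusted p = 0.385). Gclc, the catalytic subunit of the rate-limiting enzyme of glutathione synthesis, had 829.9, 1352.2 and 848.8 on curcumin, against 806.5, 717.6 and 472.7 on the standard diet. Curcumin sample 2 was the highest, and curcumin sample 1 lay just above standard sample 1 (0.60 ± 0.27). A second Gclc probe set, 1455959_s_at, went the other way with overlap (-0.23 ± 0.29), so the probe sets disagreed. The regulatory subunit Gclm had 0.32 ± 0.20 and the sulfiredoxin Srxn1 0.30 ± 0.18.

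The best known Nrf2 targets did not stand out. Nqo1, a quinone reductase, had 938.7, 864.4 and 606.1 on curcumin, against 755.3, 612.6 and 714.2 on the standard diet, and its groups overlapped (0.19 ± 0.17). Hmox1, heme oxygenase 1, had signals between 8.1 and 141 in the 6 arrays and a difference of 0.50 ± 0.97, too imprecise to give a direction. Nfe2l2, the gene of Nrf2 itself, was at -0.15 ± 0.13 and Keap1 at 0.07 ± 0.15. The list's median was 0.06 and 0.19 within the 2 array sets and 0.16 and 0.18 within the low and high pancreas samples.

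Other genes of xenobiotic metabolism showed no shared direction. Of 22 measured cytochrome P450 and aryl hydrocarbon receptor genes, 12 were higher and 10 lower, with a median of 0.02 and 0 at an unadjusted p under 0.05. Cyp1a1, the classic target of the aryl hydrocarbon receptor, had 73.5, 155.2 and 78.7 on curcumin, against 31.5, 154.2 and 81.9 on the standard diet (0.39 ± 0.56). Cyp2c65 was at 0.40 ± 0.21 and Cyp4b1 at 0.35 ± 0.24, both with overlap. Of 22 measured conjugation and efflux genes, 12 were higher and 10 lower, with a median of 0.03. Ugt2b36, a glucuronosyltransferase, had 385.5, 852.6 and 611.2 on curcumin, against 877.3, 1204.4 and 1000.9 on the standard diet, lower in every curcumin array (-0.80 ± 0.25, unadjusted p = 0.00752), and the carboxylesterase gene Ces1d was at -0.39 ± 0.27. Curcumin itself is cleared by glucuronidation and sulfation, and the sulfotransferase Sult1a1 was at -0.18 ± 0.24.

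Several genes of mucosal defence stood lower on curcumin. Itln1 encodes intelectin 1, a lectin of goblet and Paneth cells that binds microbial sugars. Its signals were 45.7, 157.5 and 67.6 on curcumin, against 998.9, 218 and 420.2 on the standard diet. The groups did not overlap, though standard sample 1 alone was more than the other 2 standard samples together, and the difference was -2.52 ± 0.58 (5.73-fold lower on curcumin, unadjusted p = 0.000941, adjusted p = 0.999). Ang4, an antimicrobial ribonuclease of the same cells, was lower on 2 probe sets of 430B. The brighter, 1440832_at, had 1961.7, 3177.4 and 1323.1 on curcumin, against 11523.7, 6173 and 7151.1 on the standard diet (-1.98 ± 0.43, 3.95-fold lower on curcumin). The dimmer, 1438364_x_at, had 356.1, 533.5 and 323 on curcumin, against 2088.3, 1023.7 and 1238.1 on the standard diet (-1.81 ± 0.30, unadjusted p = 4.01e-05, adjusted p = 0.301). Both Itln1 and Ang4 have near-identical family members in mouse, so their probe sets may read more than 1 gene. Mptx1, a mucosal pentraxin of the intestine, had 2881.5, 2690.3 and 1993.5 on curcumin, against 6180.2, 4978.9 and 5031.2 on the standard diet. It was lower in every curcumin array by -1.11 ± 0.26 (2.16-fold lower on curcumin).

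The rest of the secretory list did not share this. Of its 24 genes, all measured, 15 were lower and 9 higher, with a median of -0.01. At an unadjusted p under 0.05, 4 were lower (of all genes, 1.8%) and 0 higher, and 0 passed the adjusted threshold. Besides Itln1 and Ang4, the 4 were Atoh1 and Clca1. Atoh1, the factor that commits cells to the secretory lineage, had 1955.9, 2510.7 and 2831.2 on curcumin, against 3791.5, 3158.6 and 2874.6 on the standard diet (-0.44 ± 0.17). Its groups nearly touched, and the difference was -0.77 in the samples low in pancreas transcripts and -0.09 in the high ones. Clca1, a secreted goblet cell protein, averaged lower by -0.36 ± 0.14. Muc2, the main mucin of the colon, was at 0.02 ± 0.22, and Zg16, a lectin of the mucus layer, at -0.03 ± 0.13. The antimicrobial lectin genes Reg3g (1.08 ± 0.51) and Reg3b (0.74 ± 0.37, and 0.12 ± 0.30 on a second probe set) went the other way: Reg3g had 874.1, 1173.2 and 2458.1 on curcumin, against 554.5, 873.7 and 546.9 on the standard diet. Curcumin sample 3 was the highest for Reg3g, as it was for the phospholipase Pla2g2a and the resistin-like Retnlb (7159.3, against 1804.6 to 2774.3 in the other 5 arrays).

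**Figure D5:**
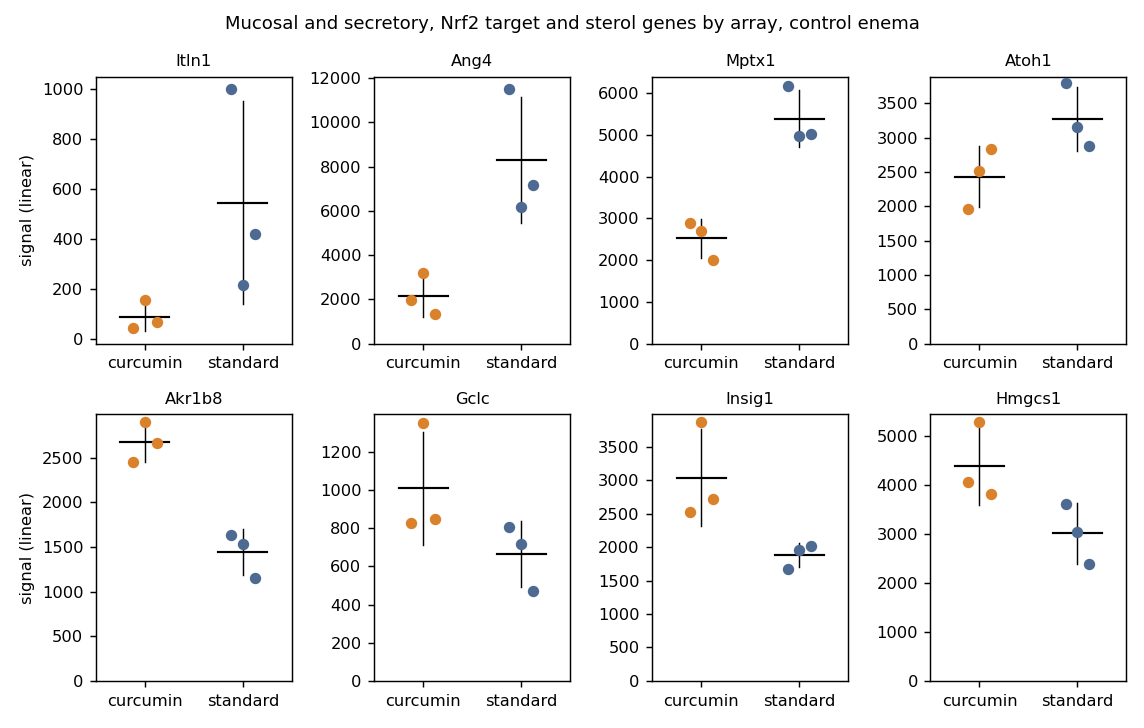
Signals (linear intensity, axes from about 0) of 8 genes of mucosal defence and the secretory lineage, Nrf2 targets and sterol synthesis, each point 1 array, curcumin diet left and standard diet right, with the mean as a horizontal line and the SD as a vertical line (n = 3 each). Itln1, Ang4, Mptx1 and Atoh1 in the upper row lie lower on curcumin, and Akr1b8, Gclc, Insig1 and Hmgcs1 in the lower row lie higher. The Gclc panel shows 1 of the 2 Gclc probe sets, and the other is at -0.23. For Hmgcs1, probe sets with overlapping groups, not shown, are at 0.11, 0.22 and 0.68.

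Inflammatory genes showed no shared direction without colitis. Of 34 measured NF-kappa B targets, cytokines and chemokines, 18 were higher and 16 lower, with a median of 0.03. The neutrophil chemokine gene Cxcl1 was higher in every curcumin array, with 82.7, 105.7 and 124.7 on curcumin, against 18, 78.4 and 57.4 on the standard diet (1.25 ± 0.51). These are low signals, at which the fold change is imprecise. The brighter Cxcl1 probe sets of 430B, 1441855_x_at and 1457644_s_at, were at 0.19 ± 0.15 and -0.12 ± 0.23, both with overlap, so a higher Cxcl1 rests on 1 dim probe set. Lcn2, the siderophore-binding lipocalin 2, rested on 1 sample: it had 82.1, 101.1 and 710.1 on curcumin, against 56.9, 114.4 and 72.8 on the standard diet (1.21 ± 0.64). Without curcumin sample 3 its difference was 0.22. The acute-phase gene Saa3 had the same pattern, with 1209.6 in curcumin sample 3 and 240.6 to 442.8 in the other 5 arrays.

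Interferon-induced genes were mostly lower. Of 21 measured, 16 were lower (of all genes, 51.6%), 3 of them at an unadjusted p under 0.05 (of all genes, 1.8%), and the median was -0.15. The 3 were lower in every curcumin array (of all genes, 3.88%). Oasl2, an oligoadenylate synthetase-like antiviral protein, had 274.4, 150.7 and 214 on curcumin, against 288, 510.8 and 325.1 on the standard diet (-0.81 ± 0.28). Mx1 was at -0.84 ± 0.32 on low signals of 62.5 to 219.1, and Usp18, which removes ISG15 from proteins, at -0.47 ± 0.19. Of 10 measured genes of antigen presentation on MHC class II, 6 were lower (of all genes, 51.6%), with a median of -0.13. H2-Ab1, a chain of the class II molecule, had 1149.8, 951.6 and 644.4 on curcumin, against 1430.1, 1420 and 1290.1 on the standard diet (-0.63 ± 0.27), while its other probe sets were at -0.32 and 0.05, and H2-Aa was at -0.32 ± 0.18. Markers of immune cells had medians of 0.02 for 19 macrophage, 0.02 for 15 B and plasma cell and -0.11 for 14 T and NK cell genes. The 13 neutrophil markers stood higher, with a median of 0.20 and 9 of 13 higher (of all genes, 48.4%). Of these, 0 had an unadjusted p under 0.05, and 2 were higher in every curcumin array (of all genes, 3.72%). Their median was 0.40 in the samples low and 0.06 in the samples high in pancreas transcripts, and their part in other results was not tested. In whole tissue, fewer cells of a type and less RNA per cell cannot be told apart.

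Among metal-binding genes, the metallothionein gene Mt2 had 2271.7, 2601.9 and 3769.7 on curcumin, against 1307.2, 1872.8 and 2212.6 on the standard diet, higher in every curcumin array (0.68 ± 0.24). Its neighbour in function Mt1 was at 0.54 ± 0.28, with overlap. The 20 measured genes of the iron and metal list had a median of -0.05. Of 28 measured absorptive colonocyte markers, 17 were higher (of all genes, 48.4%), with a median of 0.07. The sodium-proton exchanger gene Slc9a3 was at 0.54 ± 0.21 (0.01 on a dimmer probe set) and the keratin gene Krt20 at 0.23 ± 0.12, both with overlap. Slc9a3 had its highest signal, 12636.7, in curcumin sample 3, and its difference was 0.26 to 0.73 with 1 replicate left out. Enteroendocrine markers were lower in 12 of 16 genes (of all genes, 51.6%), with a median of -0.16. Among them were the prohormone-processing enzyme Cpe (-0.45 ± 0.17, but 0.68 ± 0.45 on a dimmer probe set) and the serotonin synthesis enzyme Tph1 (-0.44 ± 0.27), both with overlap. Tuft cell markers showed no stable direction: 5 of 11 were higher and 6 lower, and the median of -0.19 was 0.04 when the array set was added to the fit, 0.01 in the low and -0.46 in the high pancreas samples, and -0.15 to 0.07 with 1 replicate left out. Avil was at -1.16 ± 0.49 and Dclk1 at -0.64 ± 0.29, but the other 8 probe sets of Dclk1 were at -0.46 to 0.14 with overlap. The crypt base gene Olfm4 was at 1.67 ± 0.57 on signals of 29.7 to 414.5, and the receptor tyrosine kinase gene Ephb3 at -0.93 ± 0.57, both with overlap. Cell cycle genes were higher in 20 of 25 (of all genes, 48.4%), with a median of 0.16 and 0 at an unadjusted p under 0.05. Their median was -0.19 in the low pancreas samples and 0.32 in the high ones, and Kif11 (0.42 ± 0.27) and Mcm7 (0.20 ± 0.15) had overlapping groups and other probe sets at -0.16 to -0.05 and -0.40 to 0.08.

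In the fatty acid, clock and immediate early lists 0 genes reached an unadjusted p under 0.05. The acyl-CoA thioesterase gene Acot2 (0.60 ± 0.29, on signals of 88.3 to 208.8) and the fatty acid carrier gene Fabp1 (-1.33 ± 0.67) had the smallest p of the first. Fabp1 had low signals of 12.6 to 120.3 and overlapping groups, and its other probe set was at 0.48 ± 1.19. Of the clock genes, the nuclear receptor gene Rora was at -0.50 ± 0.28 and the repressor gene Ciart at 0.73 ± 0.47, with standard sample 3 above all curcumin arrays. Of the early genes, Egr2 was at 1.23 ± 0.80 on signals of 15.4 to 135.1, and Jun at -0.19 ± 0.14.

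The called probe set was 1460077_at of Ttc3, which encodes a ubiquitin ligase that acts on phosphorylated Akt. It had 68.5, 45.2 and 74.7 on curcumin, against 451, 346.8 and 328.2 on the standard diet. It fell by 2.60 ± 0.31 on the log2 scale (6.05-fold lower on curcumin, adjusted p = 0.0221 in limma). The other 6 probe sets of Ttc3 had differences of -0.26 to 0.36 and overlapping groups, among them 1447908_x_at with 5028.1 ± 747 on curcumin and 5315.6 ± 535 on the standard diet (SD, n = 3 each). Under TNBS the called probe set was at 0.08. Its adjusted p was 0.13 without the 2 arrays of curcumin-diet mice with TNBS that stood apart on 430B, and 0.86 with only the 6 control-enema arrays, and 0 probe sets were called in either fit. With 1 array left out the difference was -2.74 to -2.38, and the adjusted p missed the threshold without curcumin sample 2 (0.106) or standard sample 1, 2 or 3 (0.167, 0.0601 and 0.142).

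Other single probe sets with separate groups did not pass the adjusted threshold. Every curcumin array lay above every standard array for 3.0% of all probe sets on 430A and 4.18% on 430B, and below for 3.35% and 5.73%. On 430A the lower ones with the smallest p were Slc25a22, a mitochondrial glutamate carrier (-0.67 ± 0.13), Dio1, the deiodinase that activates thyroid hormone (-0.57 ± 0.15), Sowahc (-0.47 ± 0.13) and the pericyte gene Rgs5 (-0.52 ± 0.14, other probe sets at -0.53 to -0.17), beside Itln1 and Mptx1. Slc25a22 had 514.1, 496.5 and 539.1 on curcumin, against 688.9, 950.7 and 843.7 on the standard diet. On 430B, Myo1a, the myosin that ties the brush border membrane to its actin core, had 12019.9, 12309.4 and 12369.7 on curcumin, against 7658.5, 7864.9 and 9206.7 on the standard diet (0.57 ± 0.13). The curcumin arrays of Myo1a were close to each other, as were those of Ttpal, a tocopherol transfer protein-like gene, with 1356.3, 1394.7 and 1373.2 on curcumin, against 913.1, 868 and 938.7 on the standard diet (0.60 ± 0.14). The other 3 probe sets of Ttpal ran from -0.84 to 1.35. Mvp, the major vault protein (0.74 ± 0.18, and 0.25 ± 0.12 on 430A), and Mir22hg, the host gene of miR-22 (0.68 ± 0.15), were also higher. Lower on 430B were Csmd1 (-2.17 ± 0.45), 1700049J03Rik (-2.03 ± 0.43) and Acap1, a GTPase-activating protein for Arf6 (-1.30 ± 0.29). Their mean signals were 96.3, 116.4 and 451.9 on curcumin, against 430.8, 479.2 and 1116.2 on the standard diet. The other 3 probe sets of Acap1 were at -0.33 to -0.04 and those of Csmd1 at -1.14, -0.84 and 0.35, all with overlapping groups, so the separation of the diets rests on 1 probe set for each of these genes.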

How the data were processed

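Total RNA of whole colon was measured on 12 MOE430A and 12 MOE430B arrays. The authors deposited linear signal intensities. GCOS made them, per the submitters' processing notes, and neither its version nor a genome build is given in the sources used here. The 2% trimmed mean of every deposited signal column is near 500 (500.1 in all 12 arrays compared), so no further scaling was applied. The 64 control probe sets of each type were left out, and no detection calls were used. Of the probe sets, 20380 on 430A and 14661 on 430B have 1 gene symbol in the platform annotation, 691 and 245 have several and 1555 and 7605 have none.

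Log2 of the signal, with no pseudocount and no filter, was fitted for each array type alone in limma 3.58.1 (R 4.3.3) with lmFit and eBayes (trend on intensity). The fit had a mean for each of the 4 groups over all 12 arrays and 8 residual degrees of freedom. Tests were two-sided, and Benjamini-Hochberg adjustment ran within each array type. The fit was also run on simulated data with independent noise for each probe set. These data held no differences shared across probe sets, such as array sets or pancreas transcripts, so that run does not bear on them. With 3 samples against 3, an exact permutation test of a single value could not go below p = 0.1. A gene is represented by the probe set with the highest mean log2 signal, from 430A where it is there and otherwise from 430B, which gave 18193 genes. The 33 gene lists hold 654 genes.

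The members, the lists, the tests and the rule for naming genes were chosen with earlier results of these data known. Named are probe sets past the adjusted threshold and, per array type and direction, the 6 with 1 symbol and the smallest p among those without overlap and with a mean of at least 200 in the higher group. Also named are the 2 genes with the smallest p in each pathway or cell type list, and Hspa5, Hsp90b1, Ddit3, Insig1, Akr1b8, Nqo1, Hmox1, Cyp1a1, Itln1, Ang4, Atoh1 and Ttc3 with all their probe sets. Other list members were named after their values were seen.

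Alternatives were a pseudocount of 16, a filter above the 40th percentile of the mean, both together, quantile normalization, a robust variance prior, only the 6 arrays compared, the array set as a term or within sets on 430A, leaving out each replicate, and 430B without 2 outlying TNBS arrays. A term for the pancreas marker level, and values within samples low or high in it (parted at a median log2 signal of 9.5), were added after seeing the data. Promoter sequences are from RefSeq (GRCm38.p6).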

Additional observations from a re-analysis of the deposited data

Results flagged for a closer look

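The diet difference differed between the enemas for 4 of 22511 probe sets on 430B (0.0178%) by the limma interaction term, adjusted p under 0.05. Each was higher on curcumin without colitis and lower on curcumin with TNBS. For Rhbdf2, a rhomboid-like protein that helps to release TNF, the interaction was a log2 difference of 3.22 (adjusted p = 0.0109). Its signals were 587.2, 720.9 and 481.4 on curcumin, against 200.6, 283.3 and 362.5 on the standard diet with control enema. With TNBS they were 252.9, 221.9 and 188.4 on curcumin, against 759.4, 993.7 and 1145.8 on the standard diet. Clca4b, of the calcium-activated chloride channel regulators, had 6.96 (adjusted p = 0.0109), on 510.1, 808.4 and 2830 on curcumin, against 216.3, 290.6 and 304.3 on the standard diet with control enema. With TNBS it had 214.3, 268.5 and 458.6 on curcumin, against 12339.8, 4324.2 and 15797.4 on the standard diet. Tmem181a had 2.28 (adjusted p = 0.029) and the 430B probe set of Casp9, the initiator caspase of the mitochondrial death pathway, 3.89 (adjusted p = 0.0109). With 1 control-enema replicate left out, Tmem181a passed only without curcumin replicate 1 (limma adjusted p = 0.0338, otherwise 0.082 to 0.103). Casp9 missed the threshold without curcumin replicate 3 (limma adjusted p = 0.077), while Rhbdf2 and Clca4b passed in every such fit. This Casp9 probe set had 1279.5, 1299.7 and 1700.3 on curcumin, against 838.6, 252.5 and 301.5 on the standard diet with control enema, and with TNBS 302.4, 286.2 and 291.7 on curcumin, against 1222, 1227.2 and 1231.5 on the standard diet. The 430A probe sets of Casp9, 1426125_a_at and 1437537_at, had interactions of -0.40 and -0.55 and differences of -0.14 and -0.20 with control enema, so the probe sets of this gene disagreed. Without the 2 outlying curcumin-diet TNBS arrays none of the 4 passed (adjusted p = 0.19, 0.119, 0.19 and 0.19), while their interactions were 3.02, 7.44, 1.70 and 3.84. That fit leaves 1 curcumin array with TNBS, which is assumed to vary like the others. The part of these 2 arrays in the calls was not tested further.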

How the results depend on the processing

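Of 1196 values of the 70 named probe sets under the alternatives, 1158 kept their direction and side of the threshold, 30 reversed, 7 lost the call and 1 gained it; of 528 list medians, 502 moved by less than the spread between arrays and 26 by more. Called probe sets on 430A stayed at 0 under every alternative, with 640 at an unadjusted p under 0.05. That count was 410 with the filter, 415 with filter and pseudocount, where fewer probe sets were tested, 1211 when the array set was added and 397 to 1508 with 1 replicate left out. On 430B the 1 call became 0 with only the 6 control-enema arrays, with the pancreas term and without the 2 outlying arrays, and 0 to 2 with 1 replicate left out: 0 without curcumin replicate 2, standard replicate 2 or standard replicate 3, and 2 without curcumin replicate 1. Without standard replicate 1 the call was Casp9 (adjusted p = 0.00103) in place of Ttc3. Its 1007 at an unadjusted p under 0.05 became 559 with the filter, 562 with filter and pseudocount and 803 to 1626 with 1 replicate left out. Interaction calls on 430B, 4, became 9 with the filter, also with the pseudocount, 0 without the outlying arrays and 2 to 13 with 1 replicate left out, and on 430A 0 to 3. The causes were not tested.

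Reversals were all among differences that were not called. Within the samples low in pancreas transcripts these were Stip1 (-0.02), Cyp2c65 (-0.04), Mcm7 (-0.15), Egr2 (-0.32), Hmox1 (-0.82), Ttc3 1416482_at (0.60) and Hspa5 1447824_x_at (0.08). Within the high samples they were Cyp1a1 (-0.51), Nqo1 (-0.13) and Ttc3 1416483_at (0.27), 1416484_at (0.07) and 1448361_at (0.10). Within array set 1 they were Cyp2c65 (-0.06) and Nqo1 (-0.06), and within set 2 Tph1 (0.08), Lcn2 (-0.15), Mt1 (-0.02), Cyp1a1 (-0.61), Hmox1 (-1.90) and Ttc3 1416482_at (0.20). When the array set was added to the fit they were Hmox1 (-0.08) and Ttc3 1416482_at (0.09). With 1 replicate left out Hmox1 ran from -0.20 to 1.86, Cyp1a1 from -0.22 to 0.93, and Ttc3 1416482_at from -0.64 to 0.02, 1416483_at from -0.15 to 0.15, 1416484_at from -0.29 to 0.06 and 1447908_x_at from -0.20 to 0.02.

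No paired analysis was possible because the sample numbers of the 2 diets do not mark shared animals or pools and the diets share no sample numbers. The number of arrays, and at low signals such as Hmox1 the signal itself, limits what these data can show.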
